A study of Mus musculus with 44 samples.

Results

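MHC class II presentation was followed in fibrotic mouse skin through 9 genes, H2-Aa, H2-Ab1, H2-Eb1, H2-DMa, H2-DMb1, H2-DMb2, H2-Oa, Cd74 and Ciita. They were taken by name from the 43411 genes of the table, with no threshold on their values but with earlier results of these data known, and all 9 passed the filter on low values (a mean normalized count above 3 over all mice). RNA came from the back skin of 44 wild-type female C57Bl/6 mice, 1 library per mouse, in 5 groups. The mice were 8 weeks old when injected, so bleomycin and recovery groups were taken at different ages, which cannot be told apart from the treatment times. The control group had received saline (n = 10). The bleomycin groups had received daily subcutaneous injections (100 µL at 1 U/mL) for 2 weeks (n = 10) or 4 weeks (n = 10), and the recovery groups were taken 6 weeks (n = 6) or 10 weeks (n = 8) after a bleomycin course, which the study's methods give as 4 weeks. The concentration is that of the labels, and a figure legend of the study gives a lower one. All groups but saline therefore share the agent, and each of the first 4 comparisons below uses the same saline mice.

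MHC class II molecules carry peptides from ingested material to the cell surface, where CD4+ T cells read them. H2-Aa and H2-Ab1 encode the alpha and beta chains of I-A, and H2-Eb1 encodes the beta chain of I-E, whose alpha chain is not made in the C57Bl/6 strain. Cd74, the invariant chain, escorts new class II molecules to the endosome and is cut there by proteases such as cathepsin S. H2-DM, built from H2-DMa and a DM beta chain, exchanges the remaining fragment for peptide, and H2-O, built from H2-Oa and H2-Ob, restrains H2-DM. Ciita is the master co-activator of the whole set: it binds no DNA itself but docks on the factors RFX, CREB and NF-Y at conserved X and Y elements upstream of class II genes. In skin these genes are used mainly by dendritic cells, Langerhans cells and macrophages, and bleomycin is a model of skin fibrosis with inflammation.

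The upstream stretches below show how alike these genes are at the site where Ciita acts. Of the members, H2-Oa, H2-DMa, H2-DMb1, H2-DMb2, H2-Aa and H2-Eb1 (6 of 9) are taken by symbol from the RefSeq promoter table (GRCm38.p6), as are H2-Ob and H2-Eb2 of the same region. H2-Ab1, Ciita and Cd74 are named only. Capitals mark an X-like motif, AACNNATGNTG, and the Y motif, GATTGG, which holds the CCAAT box when read on the other strand. The X-like letters are the 11 bases upstream of the Y motif that differ least between H2-Eb1, H2-DMb1, H2-DMb2, H2-Ob and H2-Eb2, with N where these 5 differ. The 5 genes were picked after the sequences had been read, so the presence of the letters in them is a description.
H2-Eb1, chr17:34305770-34305820, plus strand: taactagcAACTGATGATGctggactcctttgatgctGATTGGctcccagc
H2-DMb2, chr17:34145120-34145171, plus strand: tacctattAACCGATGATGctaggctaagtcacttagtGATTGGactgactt
H2-DMb1, chr17:34153091-34153120, plus strand: tacctagtAACTGATGATGctaggctgatt
H2-Ob, chr17:34238812-34238860, plus strand: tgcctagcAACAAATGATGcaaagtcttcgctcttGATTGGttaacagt
H2-Eb2, chr17:34325537-34325587, plus strand: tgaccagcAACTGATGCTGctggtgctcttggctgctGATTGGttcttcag
H2-Aa, chr17:34287859-34287920, minus strand: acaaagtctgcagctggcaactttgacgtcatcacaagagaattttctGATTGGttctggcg
H2-Oa, chr17:34092323-34092352, plus strand: gagaactgctctGATTGGctgcttaccgca
The X-like motif began 89 bases before the start of H2-Eb1, 121 before H2-DMb2, 92 before H2-DMb1, 85 before H2-Ob and 130 before H2-Eb2, and the gap from its end to the Y motif was 16 to 19 bases in all 5. The Y motif of H2-DMb1 lies just past the stretch printed. Neither H2-Aa nor H2-Oa held the X-like letters, and their Y motifs began 49 and 44 bases before the start. Of the windows of H2-DMa, 1 held a Y motif and none the X-like letters. On either strand, 0.566% of all 32851 RefSeq promoter windows of the same length held the X-like motif and 16.109% the Y motif. The X-like motif with a Y motif starting within 40 bases after it on the same strand occurred in 5 windows (0.015%), those of H2-DMb2, H2-DMb1, H2-Ob, H2-Eb1 and H2-Eb2.

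In the mm10 build (GRCm38, GENCODE annotation), 7 members lie within the class II region of chromosome 17, from H2-Oa at chr17:34092340-34095234 over H2-DMa (chr17:34119541-34139101), H2-DMb2 (chr17:34143307-34151555), H2-DMb1 (chr17:34153072-34160230), H2-Ab1 (chr17:34257689-34269419) and H2-Aa (chr17:34282744-34287823) to H2-Eb1 at chr17:34305867-34316674. Only H2-Aa of these 7 is on the minus strand. Cd74 lies at chr18:60803848-60812652 and Ciita at chr16:10480059-10528418, both on the plus strand. The strand setting of the counting is not given in the sources used here, so reads cannot be told apart where H2-DMa overlaps Brd2, Ciita overlaps Dexi, H2-Oa overlaps BC051537 and H2-Eb1 overlaps Gm20513. H2-DMb1 and H2-DMb2 are close paralogs: 22.7% of the 50-base windows in H2-DMb1 transcripts also occur in H2-DMb2, and the counts of both genes are uncertain to that extent.

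Between 8509094 and 15285577 reads per mouse fell on genes (median 11310008.5). Group medians rose from 9523976 in saline to 12905996.5 in 10-week recovery. The tissue was skin by its markers: the keratinocyte genes Krt1, Krt5, Krt10 and Krt14 summed to at least 104919 normalized counts in every mouse, and muscle genes were also abundant (at least 63982.1). Saline mouse 1 and 2-week bleomycin mouse 2 had the lowest median correlation to the rest of their group over all genes, 0.983 and 0.980. Saline mouse 6 and 10-week recovery mouse 4 were close to saline mouse 1, both at 0.985. Saline mouse 1 was the lowest of its group for 9 of 9 members and also for the leukocyte gene Ptprc. The 2-week mouse 2 was the highest of its group for 8 members and the lowest for Ciita. Results that rest on these mice are given with and without them, and leaving them out is not independent of the members' own values.

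In saline skin the members spanned a wide range of levels. Per kilobase of exon, the median level was 12765 normalized counts for Cd74, 3669 for H2-Eb1, 3175 for H2-Ab1, 2442 for H2-Aa, 479 for H2-DMb1, 246 for H2-DMa, 85.1 for H2-DMb2, 34.0 for Ciita and 23.3 for H2-Oa. Cd74 was thus far above the presenting chains, and the chains far above the H2-DM genes and H2-Oa. Among neighbours in this order, H2-Eb1, H2-Ab1 and H2-Aa overlapped over the 10 mice, as did H2-DMb1 with H2-DMa and Ciita with H2-Oa, while Cd74 overlapped no other member. Together H2-Aa, H2-Ab1, H2-Eb1 and Cd74 took a median of 0.401% of all reads on genes in saline skin, 0.333% and 0.328% after 2 and 4 weeks of bleomycin, and 0.421% and 0.308% after 6 and 10 weeks of recovery.

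None of the 9 members differed from saline after 2 weeks of bleomycin by the limits used throughout, a change of more than 1.5-fold together with a limma p below 0.05 after Benjamini-Hochberg adjustment over the 17037 genes tested. Of all those genes, 16.7% passed both limits. The chains and Cd74 lay close to saline (log2 fold changes -0.22 to 0.08), and the 2 highest fold changes belonged to H2-DMb1 and Ciita. The median log2 fold change of the members was -0.0068, against 0.0025 over all genes tested. An adjusted p below 0.05 without regard to fold was reached by 2 members (35.6% of all genes), and an unadjusted p below 0.05 by the same 2 (43.9% of all genes). The 2 tools run on recovered reads, edgeR and DESeq2, called 1 member each, H2-DMb1. In bulk skin, fewer cells of a type and less RNA per cell cannot be told apart.

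**Figure D1:**
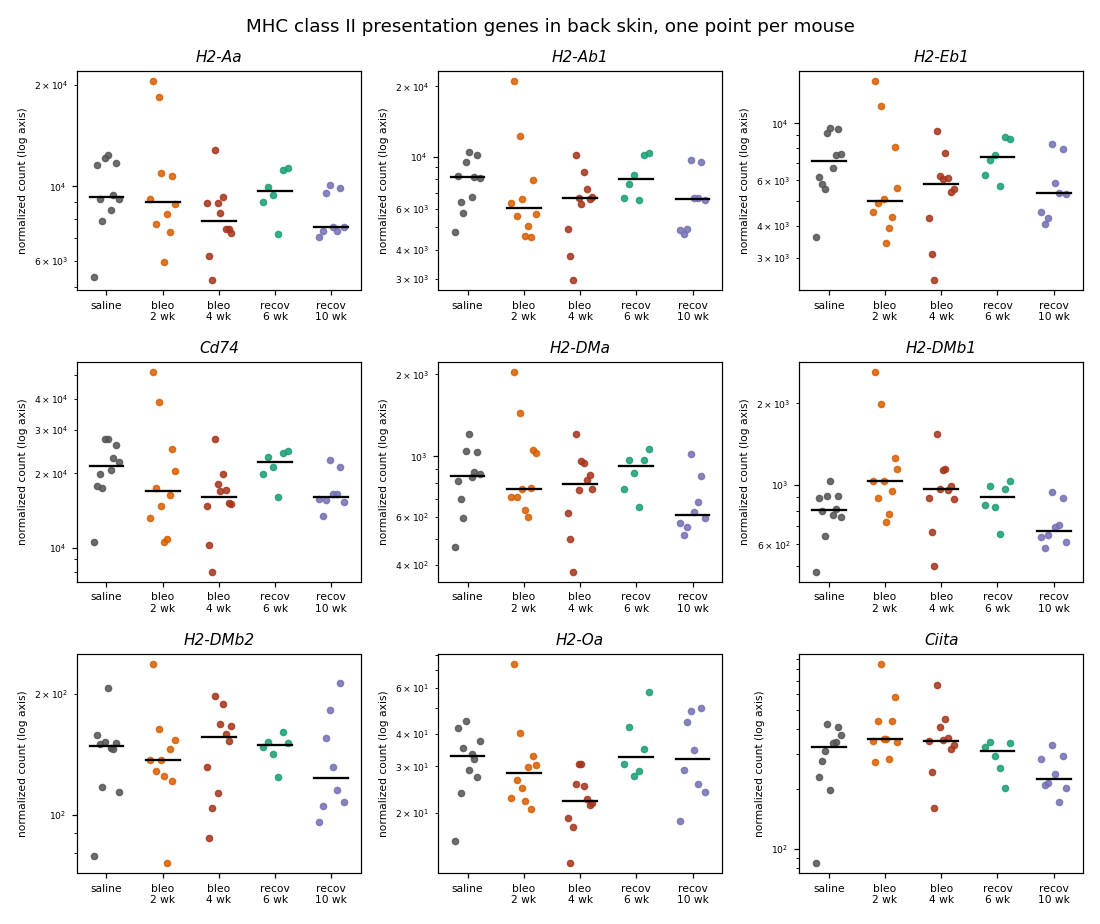
Normalized counts of the 9 class II presentation genes on log axes, 1 point per mouse and a bar at the group median, for saline (n = 10), 2 and 4 weeks of bleomycin (n = 10 each) and 6 and 10 weeks of recovery (n = 6 and n = 8). All groups overlap saline for every gene, and the highest point of most panels is 2-week bleomycin mouse 2, with 21095 normalized counts of H2-Ab1.

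H2-Ab1 held 4750 to 10422 normalized counts in saline mice (median 8153) and 4551 to 21095 in 2-week mice (median 6020). The 2-week median was lower, with 2 mice below every saline mouse, but mice 2 (21095) and 4 (12304) were above all of them. The log2 fold change was -0.12 (SE 0.21, 95% interval -0.55 to 0.32, adjusted p = 0.715). H2-Eb1 gave the same picture, with 3620, 7132 and 9550 normalized counts as lowest, median and highest in saline and 3427, 4991 and 14626 at 2 weeks. Its log2 fold change was -0.22 (SE 0.22, adjusted p = 0.471). Cd74 was at 10526, 21433 and 27469 normalized counts in saline and at 10558, 16910 and 51260 at 2 weeks, a log2 fold change of -0.10 (SE 0.21, adjusted p = 0.744). H2-Aa differed from both chains above in that its medians were nearly level, 9274 in saline and 8982 at 2 weeks (log2 fold change 0.08, SE 0.17, adjusted p = 0.753). H2-DMa, H2-DMb2 and H2-Oa had log2 fold changes of 0.14, -0.01 and -0.03, with adjusted p-values from 0.596 to 0.979.

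H2-DMb1, the beta chain of the peptide exchanger, ranged from 476 to 1034 normalized counts in saline (median 804.5) and from 725 to 2606 at 2 weeks (median 1031), and 4 of 10 bleomycin mice exceeded every saline mouse. Its log2 fold change of 0.54 (SE 0.17, 95% interval 0.19 to 0.89, adjusted p = 0.0120) passed the test but not the fold limit. The fold limit was passed without saline mouse 6 (0.59), 2-week mouse 6 (0.61) or 2-week mouse 7 (0.60), and by edgeR (0.65, adjusted p = 0.0036) and DESeq2 (0.63, adjusted p = 0.0018) on reads. Without both saline mouse 1 and 2-week mouse 2 it fell to 0.33, with an adjusted p of 0.0870 over the remaining 42 mice.

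Ciita was at 84.7 to 423 normalized counts in saline (median 324) and 272 to 853 at 2 weeks (median 356). Mouse 4 held the highest value and mouse 2, highest for the other 8 genes, the lowest. The log2 fold change was 0.54 (SE 0.22, 95% interval 0.10 to 0.99, adjusted p = 0.0480). This value rested on single mice: the adjusted p was 0.05 or more in 10 of the 20 fits that left out 1 mouse, up to 0.146 without saline mouse 1 (0.36) and 0.122 without 2-week mouse 4 (0.42). Conversely the fold limit was passed without saline mouse 5 (0.61), 9 (0.61) or 10 (0.59) and without 2-week mouse 2 (0.61) or 7 (0.60). Over the 42 mice it was 0.42 (adjusted p = 0.0833).

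After 4 weeks of bleomycin the members again held 0 calls, against 17.9% of all genes, and edgeR and DESeq2 on reads also made 0. Their median log2 fold change was -0.25 (range -0.47 to 0.32), against -0.00065 over all genes. No member had an adjusted p below 0.05 (36.6% of all genes), and 1, H2-Oa, had an unadjusted p below 0.05 (44.9% of all genes). H2-Oa was at 15.5, 32.8 and 44.6 normalized counts (lowest, median, highest) in saline and at 12.8, 22.2 and 30.7 at 4 weeks, and the groups overlapped. Its log2 fold change of -0.47 (SE 0.20, 95% interval -0.87 to -0.06) had an adjusted p of 0.0632. Cd74 was at 8000, 16048 and 27458 normalized counts, with a log2 fold change of -0.41 (SE 0.21, adjusted p = 0.131). The same values for H2-Eb1 were 2464, 5820 and 9371, with -0.38 (SE 0.22, adjusted p = 0.180). H2-Ab1 was at 2971, 6638 and 10137 normalized counts, with a log2 fold change of -0.33 (SE 0.21, adjusted p = 0.237). All 4 medians were below saline, yet for H2-Ab1 8 of 10 mice stayed within the saline range. Over the 42 mice without saline mouse 1 and 2-week mouse 2, the adjusted p was below 0.05 for H2-Oa (-0.57, 0.0072), Cd74 (-0.52, 0.0219) and H2-Eb1 (-0.48, 0.0495), none with a fold change above 1.5. Saline mouse 1 was the lowest of its group for 9 of 9 members, so leaving it out lowers these fold changes by itself. The 2-week mouse enters this comparison only through the shared spread. With 1 mouse left out, Cd74 and H2-Eb1 passed in 0 of 20 fits each (lowest adjusted p 0.0516 and 0.0835). For H2-Oa the adjusted p was also below 0.05 without saline mouse 1 (-0.57, 0.0194), without 4-week mouse 5 (-0.52, 0.0463) and without 4-week mouse 6 (-0.52, 0.0451). H2-DMb1 and Ciita lay on the other side of 0 at 4 weeks, with log2 fold changes of 0.24 (adjusted p = 0.281) and 0.32 (adjusted p = 0.271).

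In recovery, the median log2 fold change of the members against saline was 0.09 at 6 weeks and -0.21 at 10 weeks. The 10-week value was near the -0.25 of 4 weeks of bleomycin. At 6 weeks 0 members and 5.04% of all genes were called, and the members' log2 fold changes ran from 0.02 to 0.20. At 10 weeks 0 members and 3.05% of all genes were called, with log2 fold changes from -0.31 to 0.07. No member had an unadjusted p below 0.05 at either time (24.8% and 19.1% of all genes), and edgeR and DESeq2 made 0 calls. H2-Ab1 was at 6529, 8009 and 10317 normalized counts (lowest, median, highest) at 6 weeks and at 4685, 6592 and 9658 at 10 weeks, so that its 95% interval against saline ran from -0.40 to 0.60 and from -0.70 to 0.22 on the log2 scale. These intervals still hold fold changes above 1.5 at 6 weeks and below the inverse of 1.5 at 10 weeks.

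Compared directly, 4 weeks and 2 weeks of bleomycin differed for 0 members (2.35% of all genes), although 8 of 9 fold changes were negative (median -0.28). At 6 weeks of recovery against 4 weeks of bleomycin, 1 member was called, against 11.9% of all genes. This was H2-Oa, at 37.0 ± 11.5 normalized counts (SD, n = 6) in recovery and 22.7 ± 5.60 (SD, n = 10) at 4 weeks of bleomycin, a log2 fold change of 0.67 (SE 0.23, adjusted p = 0.0283). Recovery mice held 27.7 to 57.7 normalized counts and bleomycin mice 12.8 to 30.7, so the groups overlapped. Recovery mice 1, 3 and 4 (30.65, 27.67 and 28.79) lay below the highest bleomycin mouse (30.69). With 12 to 60 reads per mouse this call was fragile: it was lost without 4-week mouse 2 (0.59, adjusted p = 0.0583), 6-week recovery mouse 2 (0.62, 0.0640) or 6-week recovery mouse 6 (0.54, 0.107). At 10 weeks of recovery against 4 weeks of bleomycin 0 members were called (15.8% of all genes), with H2-Oa at 0.54 (adjusted p = 0.0455, a limit that 32.7% of all genes passed) and Ciita at -0.53 (adjusted p = 0.0781). A call appeared for Ciita without 4-week mouse 3 (-0.65, adjusted p = 0.0240) and for H2-Oa without 4-week mouse 5 (0.59) or 6 (0.59) or 10-week recovery mouse 1 (0.65), 6 (0.59) or 8 (0.60). The adjusted p of H2-Oa passed 0.05 in 8 of the 18 fits without 1 mouse. Between the recovery groups 0 members and 0.088% of all genes were called, although the fold changes of all 9 members were negative at 10 against 6 weeks. They ran from -0.40 to -0.13 (median -0.31), and no member had an unadjusted p below 0.05.

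Some other genes of the class II pathway changed. Of the 16 other pathway genes tested, 4 rose and 0 fell at 2 weeks, and 5 rose and 1 fell at 4 weeks. Over all genes 9.3% rose and 7.43% fell at 2 weeks, and 10.5% rose and 7.37% fell at 4 weeks. The median log2 fold change of these 16 was 0.15 and 0.11. Ctss, Lgmn, March1 and H2-Eb2 rose at both times and Cd83 at 4 weeks, while H2-Ob fell at 4 weeks.

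Ctss, the cathepsin S that trims the invariant chain, was at 1205 to 2657 normalized counts in saline (median 1757), 5131 to 18902 at 2 weeks (median 6387) and 5237 to 8950 at 4 weeks (median 6119). Every bleomycin mouse exceeded every saline mouse, and the log2 fold change was 2.13 (SE 0.16, adjusted p = 2.57e-14) and 1.88 (SE 0.16, adjusted p = 1.2e-12). Lgmn, an asparagine endopeptidase of the endosome, behaved alike, from a median of 1169 normalized counts to 3573 and 3726, with log2 fold changes of 1.77 and 1.70. March1, a ubiquitin ligase that takes class II molecules off the surface, rose by 0.97 (SE 0.16, adjusted p = 4.36e-06) and 0.65 (SE 0.16, adjusted p = 0.0011). Its opponent Cd83 had a log2 fold change of 0.49 at 2 weeks, below the limit, and rose by 0.62 (SE 0.15, adjusted p = 0.0012) at 4 weeks.

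The class II genes outside the 9 moved in opposite directions. H2-Eb2, a low-level beta chain gene next to H2-Eb1, went from a median of 7.19 normalized counts in saline to 14.6 at 2 weeks and 17.2 at 4 weeks (log2 fold changes 1.10 and 1.11, SE 0.24), and it was below saline after 10 weeks of recovery (median 3.26, log2 fold change -1.05, SE 0.26, adjusted p = 0.0089). H2-Ob, the partner of H2-Oa, had medians of 83.2, 54.0 and 38.3 normalized counts in saline, 2 weeks and 4 weeks. Its log2 fold change was -0.50 at 2 weeks (adjusted p = 0.0433, short of the fold limit), and at 4 weeks it fell by 0.90 (SE 0.20, adjusted p = 0.00029). At 6 and 10 weeks of recovery it was at -0.39 and -0.40, with adjusted p-values of 0.291 and 0.294. H2-Ea-ps, listed as a pseudogene, was at 0 in 41 mice and at 0.97 normalized counts or less in the others. The promoter stretches of H2-Eb2 and H2-Ob printed above carry the same pair of motifs, with X-like letters drawn from a set that includes both genes. The part of the motifs in the changes of these genes was not tested. Of the DNA-binding partners of Ciita, Nfya passed the p limit but not the fold limit at 4 weeks (-0.42, SE 0.07, adjusted p = 5.29e-06), and Rfx5, Rfxap, Rfxank, Creb1, Nfyb and Nfyc were not called at any time against saline. Among the other proteases Ctsl, Ctsb and Ctsd were not called either.

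Irf1, a transcription factor that helps switch on Ciita, rose by 0.73 (SE 0.12, adjusted p = 3.96e-06) at 2 weeks. Its level exceeded every saline mouse in 5 of 10 mice at 2 weeks and in 2 of 10 at 4 weeks. It belongs to a list of 6 tested genes of interferon-gamma signalling. In that list 2 genes rose at 2 weeks and 1 at 4 weeks, and 0 fell at either time. Over all genes 9.3% and 10.5% rose. Ifng, which encodes the cytokine interferon-gamma, was too low to be tested, with medians of 2.61, 5.56 and 2.65 normalized counts in saline, 2 weeks and 4 weeks.

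Of 7 tested neighbours in or near the class II region, 3 rose at 2 weeks and the same 3 at 4 weeks. All 3 serve class I presentation. Of the 7, Btnl2 and Notch4 lie beyond H2-Eb1, past the members on chromosome 17. Tap1, a subunit of the peptide pump, and Psmb8 and Psmb9, subunits of the immunoproteasome, lie between H2-DMb1 and H2-Ob. Tap1 went from 956 to 1841 normalized counts in saline to 2241 to 4460 at 2 weeks, with no overlap, a log2 fold change of 0.91 (SE 0.11, adjusted p = 4.65e-09). Reads of Tap1 and Psmb9, which overlap on opposite strands, cannot be told apart where they do. Psmb8 and Psmb9 rose by 1.05 (SE 0.16) and 1.08 (SE 0.14), again with no overlap. At 4 weeks the 3 genes rose by 0.78, 0.81 and 0.68. The other 4 neighbours, Tap2 (the partner of Tap1, with log2 fold changes of 0.28 and 0.35), Brd2, Btnl2 and Notch4, were not called.

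Genes of the contact between presenting cell and T cell rose in part. The list of 6 holds the costimulatory genes Cd80, Cd86, Cd40 and Icosl and the inhibitory ligands Cd274 (PD-L1) and Pdcd1lg2 (PD-L2). Cd80 went from a median of 17.6 normalized counts to 67.3 and 48.4 (log2 fold changes 1.90 and 1.40, SE 0.20), and Cd40 from 50.5 to 144 and 108 (1.49 and 1.03, SE 0.19). Cd274 rose at 2 weeks from a median of 223 to 332 normalized counts (log2 fold change 0.78, SE 0.14, adjusted p = 2.24e-05), with 8 of 10 mice above every saline mouse, and was not called at 4 weeks (0.37). Thus 3 of the 6 rose at 2 weeks and 2 at 4 weeks, and after 10 weeks of recovery Cd80 alone was called (0.80, SE 0.21, adjusted p = 0.0194), and the count was 0 without 10-week recovery mouse 2. Cd4, the co-receptor for class II, was at 46.5, 88.1 and 119 normalized counts (lowest, median, highest) in saline, 64.2, 146 and 306 at 2 weeks and 82.1, 182 and 342 at 4 weeks. It rose by 0.76 (SE 0.23, adjusted p = 0.0083) and 1.10 (SE 0.23, adjusted p = 0.00018), with overlapping groups. Of the 6 T-cell genes, Cd3d, Cd4 and Cd8a rose at 2 weeks and Cd4 at 4 weeks.

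Markers of the cells that could carry class II moved with the groups. All 4 pan-leukocyte genes (Ptprc, Cd53, Coro1a, Laptm5) rose at 2 and 4 weeks, and their summed level ranged from 2143 to 5071 normalized counts in saline, 6056 to 18807 at 2 weeks and 4734 to 13203 at 4 weeks. Of 9 macrophage genes, 7 rose at each time, led by the Fc receptor gene Fcgr1 (log2 fold changes 3.23 and 2.68, SE 0.21). The macrophage sum was 10641 to 25860 in saline and 24376 to 58018 and 23583 to 45051 at 2 and 4 weeks. None of these 13 genes was called against saline at either recovery time, and against 4 weeks of bleomycin all 4 leukocyte genes and 7 (6 weeks) or 8 (10 weeks) of the macrophage genes were lower. Dendritic cell genes were mixed: Xcr1, Cd209a and Flt3 fell at 2 weeks, Xcr1, Cd209a and Clec9a fell at 4 weeks, and Ccr7, carried by migrating dendritic cells, rose by 1.54 and 1.97 (SE 0.23). Itgax, which encodes CD11c, rose at 4 weeks by 0.76 (SE 0.14, adjusted p = 2.74e-05), with 9 of 10 mice above every saline mouse, and was at 0.28 at 2 weeks (adjusted p = 0.124). The dendritic sum over 9 genes was 757 to 2109 in saline, 968 to 1480 at 2 weeks and 878 to 1667 at 4 weeks. Xcr1 stayed low in recovery, with medians of 78.7 normalized counts in saline, 31.9 at 6 weeks and 33.1 at 10 weeks (log2 fold changes -1.07 and -1.15). The dendritic counts in recovery, 2 genes lower at 6 weeks and 3 at 10 weeks, depended on single mice: without saline mouse 1 they were 4 and 5, and without some other single mice, such as saline mouse 5, each was 1. The Langerhans cell gene Cd207 was at -0.50 and -0.49 after 2 and 4 weeks of bleomycin, short of the fold limit. The B-cell genes Ms4a1, Pax5 and Cr2 had medians between 0 and 2.50 normalized counts in every group. Of the 3 B-cell genes that could be tested, 3 rose at 2 weeks and 2 at 4 weeks (2 and 1 by edgeR and by DESeq2, and 1 at 4 weeks without saline mouse 2 or any of several other mice). All 6 together summed to at most 143.1 normalized counts. Of 4 fibroblast genes 2 fell at 2 weeks and 1 at 4 weeks, and of 3 endothelial genes 1 rose at each time. Hair follicle genes fell too, 4 of 4 at both times, and no keratinocyte or muscle gene was called. The part of these cell types in the class II levels was not tested.

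**Figure D2:**
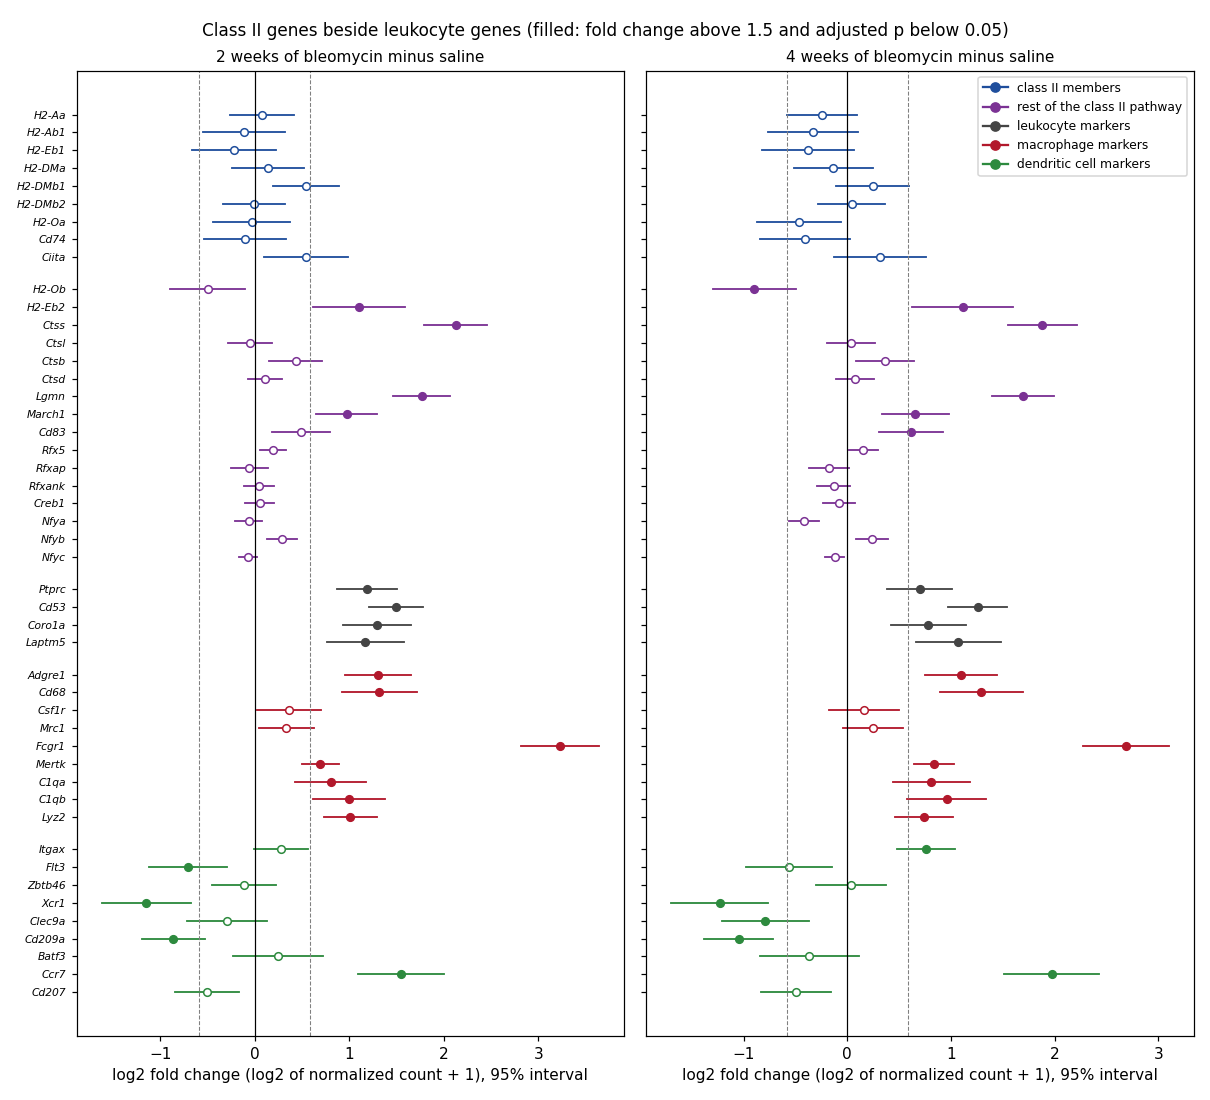
Log2 fold changes against saline (points, log2 of normalized count + 1) with 95% intervals after 2 weeks (left) and 4 weeks (right) of bleomycin for each class II member and for the other pathway, leukocyte, macrophage and dendritic cell genes tested. Filled points passed both limits and dashed lines mark a fold change of 1.5. None of the 9 members is filled, while all 4 leukocyte genes and 7 of 9 macrophage genes are, to the right of 0.

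The contrast was read within each mouse as the ratio of a class II gene to the leukocyte gene Ptprc, which encodes CD45. The lowest, median and highest ratio of H2-Ab1 to Ptprc was 6.26, 8.51 and 11.4 in saline, 2.51, 3.12 and 8.08 at 2 weeks, and 2.71, 4.33 and 6.24 at 4 weeks. Thus 9 of 10 mice at 2 weeks and 10 of 10 at 4 weeks lay below every saline mouse, the exception being 2-week mouse 2. The log2 difference was -1.30 (SE 0.18) at 2 weeks and -1.03 (SE 0.16) at 4 weeks, so that H2-Ab1 per Ptprc was 0.405 and 0.490 times its saline level. The two-sided permutation test with 100000 resamples gave p = 2e-05 for both, the smallest p it can give, and 0.00028 after adjustment over 28 ratio tests. A ratio falls when its reference rises, and Ptprc was itself called higher at both times. Any gene that does not rise then gives a lower ratio, so these p-values do not show a fall in H2-Ab1 itself. In recovery the ratio was 9.67, 10.2 and 12.9 at 6 weeks (log2 difference 0.33, SE 0.12, adjusted p = 0.138, exact permutation test) and 5.57, 10.7 and 12.6 at 10 weeks (0.07, SE 0.19, adjusted p = 0.841, exact permutation test). At 6 weeks 6 of 6 mice were above the saline mean but only 1 above every saline mouse. The 10-week mice split into 3 with ratios of 5.57 to 7.15, 2 of them below every saline mouse, and 5 of at least 10.5.

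**Figure D3:**
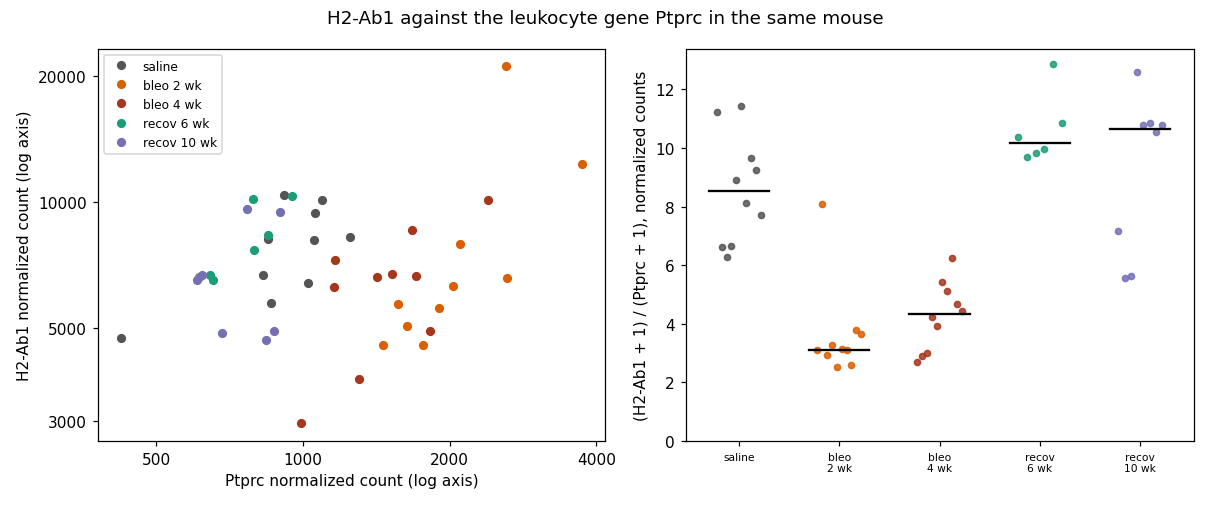
Left, H2-Ab1 against Ptprc in normalized counts on log axes, 1 point per mouse coloured by group. Right, the ratio of H2-Ab1 to Ptprc (each normalized count + 1) by group with the group median as a bar, where 9 of 10 mice at 2 weeks and 10 of 10 at 4 weeks of bleomycin lie below every saline mouse and both recovery groups overlap saline, with 2 of 8 mice at 10 weeks below every saline mouse.

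The lower ratio was shared by most members and by other leukocyte references, all chosen after the first ratio had been seen. Against Ptprc, the log2 differences at 2 weeks were -1.11 for H2-Aa, -1.41 for H2-Eb1, -1.29 for Cd74 and -1.05 for H2-DMa, each with an adjusted p of 0.00056 or less. H2-DMb1 was at -0.65 (adjusted p = 0.0028). Ciita was at -0.64, with an adjusted p of 0.0508 (permutation tests, n = 10 per group). With Cd53, Coro1a or Laptm5 in place of Ptprc, the log2 difference of H2-Ab1 ran from -1.29 to -1.61 at 2 weeks and from -1.11 to -1.59 at 4 weeks. Flt3 and Zbtb46 were also taken as references after the data had been seen, out of a list whose members moved in different directions, and Ccr7 and Itgax, which rose, were not used. Flt3 itself fell at 2 weeks, and H2-Ab1 per Flt3 was higher than in saline by 0.59 (SE 0.20, adjusted p = 0.0245, permutation test) on the log2 scale at 2 weeks, 0.82 (SE 0.23, adjusted p = 0.0060, exact permutation test) at 6 weeks of recovery and 0.52 (SE 0.15, adjusted p = 0.0071, exact permutation test) at 10 weeks, all over 8 tests. At 4 weeks of bleomycin it was 0.23 (adjusted p = 0.164, permutation test). A ratio also rises when its reference falls. Flt3 was below every saline mouse in 3 of 10 mice at 2 weeks of bleomycin and in 1 of 10 at 4 weeks. It was also below all of them in 2 of 6 mice at 6 weeks of recovery and 2 of 8 at 10 weeks. No mouse of these groups was above every saline mouse. H2-Ab1 was not called at either recovery time, and the part of Flt3 in these ratios was not tested. Against Zbtb46, another dendritic cell gene, no difference passed (log2 differences -0.36 to 0.06, adjusted p of 0.166 or more).

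**Figure D4:**
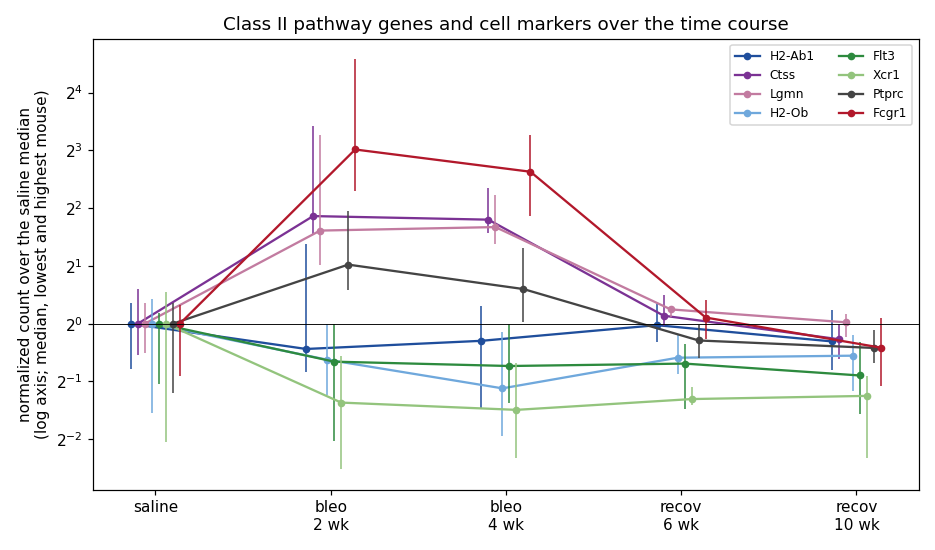
Median normalized count of 8 genes in each group divided by the saline median (points and lines, log axis, with vertical bars from the lowest to the highest mouse), for H2-Ab1, the proteases Ctss and Lgmn, H2-Ob, the dendritic cell genes Flt3 and Xcr1, the leukocyte gene Ptprc and the macrophage gene Fcgr1. The H2-Ab1 median lies below 1 in every group after saline (8153 normalized counts in saline, then 6020, 6638, 8009 and 6592). Fcgr1, Ctss, Lgmn and Ptprc peak at 2 or 4 weeks of bleomycin, and Xcr1 stays low into recovery.

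Within the set, some balances shifted. H2-DMb1 over H2-DMb2 was 4.97 to 6.61 in saline and 5.77 to 12.0 at 2 weeks of bleomycin, above every saline mouse in 8 of 10 mice, a log2 difference of 0.55 (SE 0.12, adjusted p = 0.0015, permutation test with n = 10 per group). The shared sequence of both genes bears on this ratio and its part was not tested. At 4 weeks the difference was 0.20 (SE 0.09, adjusted p = 0.138, permutation test). Ciita over H2-Ab1 was higher at 4 weeks by 0.65 (SE 0.19, adjusted p = 0.0020, permutation test), with 10 of 10 mice above the saline mean and 6 above every saline mouse. At 2 weeks it was higher by 0.66 (SE 0.31), which did not pass (adjusted p = 0.170), and over the 42 mice by 0.79 (adjusted p = 0.00077, permutation test). H2-Aa over H2-Ab1 gave 0.19 at 2 weeks (SE 0.08, adjusted p = 0.138) and 0.24 over the 42 mice (adjusted p = 0.0092, permutation test). H2-Eb1 and Cd74 over H2-Ab1 differed from saline by at most 0.10 in size at any time, and H2-Oa over H2-DMa ran from -0.33 at 4 weeks to 0.39 at 10 weeks of recovery, with adjusted p-values of 0.170 for both (permutation tests).

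Across mice the members varied together. After group means were taken off, Pearson's r over the 44 mice was 0.881 to 0.966 among H2-Aa, H2-Ab1, H2-Eb1 and Cd74, and 0.862 to 0.965 between these 4 and H2-DMa or H2-DMb1. H2-DMb2 and H2-Oa correlated less with these 4 (0.704 to 0.750), and Ciita least (0.412 to 0.606 with the other 8). Without 2-week mouse 2, Ciita was at 0.521 to 0.791. The points share library and scaling, so these values are descriptions.

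The genes most like H2-Aa, H2-Ab1, H2-Eb1 and Cd74 by this measure were Alox5ap (0.946), Hcls1 (0.945), Spi1 (0.942), Coro1a (0.941), Il2rg (0.940), Itgb7 (0.933), Ifnar2 (0.922), Ptpn6 (0.918), Selplg (0.917) and Fes (0.914), over 44 mice. Hcls1, Coro1a, Ptpn6 and Selplg are leukocyte genes, and Spi1 encodes PU.1, a factor of myeloid cells and B cells. Without 2-week mouse 2 the values ran from 0.888 to 0.934. With the group means left in, they were 0.440 to 0.680: the same 10 genes had log2 fold changes of 0.67 to 1.29 at 2 weeks and 0.36 to 0.93 at 4 weeks, where H2-Aa, H2-Ab1, H2-Eb1 and Cd74 had none above 0.08. Of the 9 dendritic cell genes, Batf3 (0.825) and Flt3 (0.748) were most like these 4 class II genes, also without 2-week mouse 2 (0.768 and 0.735). Zbtb46 (0.0047) and Cd207 (0.048) were least like them, and without that mouse they were at 0.274 and 0.121 (Cd207 lowest).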

How the data were processed

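Skin RNA was prepared with a stranded mRNA kit and sequenced in pairs. The authors aligned the reads with STAR 2.4.0 to mm10 and, with DESeq2 1.12.3, divided the counts by a size factor per mouse. The deposited signal is a table of these normalized counts. Which counter, strand option and annotation they used is not given in the sources used here. Whole reads were recovered (100.0% of values whole within 0.05). Symbols matched 98.9% of gene identifiers, and 0 columns were left unassigned. Ifi30 and Jak2 are not analysed here. A further gene of the lists is not reported here.

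All 44 mice entered 1 fit in limma 3.58.1 (R 4.3.3, mean-variance trend) of log2(normalized count + 1), restricted to mean normalized counts over 3. Fold changes are on that scale, which understates low genes. Calls needed more than 1.5-fold change and, over the 17037 genes, a Benjamini-Hochberg p under 0.05. As alternatives, edgeR 4.0.16 (quasi-likelihood) and DESeq2 1.42.0 were run on the recovered reads. Ratios within a mouse were compared in Python 3.11.15 (scipy 1.17.1) by permutation, two-sided, with all arrangements for the recovery groups and 100000 resamples otherwise. The scripts were tested on simulated data. Mice are the replicates, and intervals are for differences between group means, not for the spread of single mice.

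The members, taken by name, and the lists were chosen with earlier results of these data known. Named were all members, genes of the lists, and the 10 genes most correlated with H2-Aa, H2-Ab1, H2-Eb1 and Cd74. Groups and replicate numbers came from the labels. Alternatives varied the pseudocount, filter, fold limit, scaling, mice, replicate block and tool.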

Additional observations from a re-analysis of the deposited data

Results flagged for a closer look

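Of 80 checks for a mouse far from the rest of its group, 6 found one, where chance gives about 1 in 20, and all 6 were in the 2-week bleomycin group. In mouse 2, H2-Ab1 was at 21095 normalized counts, a gap of 0.531 of the group's range, and H2-Oa at 74.1 (0.631). In the same mouse the log2 ratio of H2-Aa to H2-Ab1 was -0.036 (0.541), that of Ciita to H2-Ab1 was -6.27 (0.714) and that of H2-Ab1 to Ptprc was 3.01 (0.651). Mouse 4 held 852.8 normalized counts of Ciita (0.467). The 5 values of mouse 2 come from 1 library and are not independent of each other.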

How the results depend on the processing

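Counts of members called moved in 3 comparisons. At 2 weeks against saline the count of 0 became 2 with no fold limit, 2 with a log2 limit of 0.5, 1 by edgeR and 1 by DESeq2, and leaving out 1 mouse gave 0 to 2. At 6 weeks of recovery against 4 weeks of bleomycin the 1 call became 0 with no filter on low values, and 0 to 1 without 1 mouse. At 10 weeks of recovery against 4 weeks of bleomycin the count of 0 became 1 with no fold limit, 1 with the limit of 0.5, 1 by edgeR (Ciita, -0.61) and 1 by DESeq2 (H2-Oa, 0.59), and 0 to 1 without 1 mouse. The cause was not tested.

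Directions turned only for log2 differences of at most 0.14 in size. At 2 weeks, H2-DMb2 was at 0.0088 after rescaling by trimmed means (TMM), 0.018 by edgeR and 0.0037 by DESeq2, H2-Ab1 at 0.042 and 0.029, Cd74 at 0.057 and 0.044 and H2-Oa at 0.017 (edgeR). Over the 42 mice H2-Aa was at -0.13 and H2-DMa at -0.078 at 2 weeks, H2-DMb2 at -0.046 at 4 weeks, and at 6 weeks of recovery H2-Aa was at -0.074, H2-Eb1 at -0.015, H2-DMa at -0.00084, H2-DMb2 at -0.014, Cd74 at -0.058 and Ciita at -0.12. H2-Oa was at -0.032 at 10 weeks of recovery over the 42 mice. With quantile normalization H2-Aa was at -0.054 and Cd74 at -0.033 at 6 weeks of recovery, and against 4 weeks of bleomycin H2-Aa was at -0.0045 and H2-Eb1 at -0.014 at 10 weeks. edgeR and DESeq2 gave -0.00033 and -0.0068 for H2-Aa and -0.017 and -0.025 for Ciita at 6 weeks of recovery, and -0.019 and -0.0093 for H2-DMb2 at 6 weeks of recovery against 4 weeks of bleomycin. At 10 weeks of recovery against 4 weeks of bleomycin edgeR gave -0.0008987 for H2-Aa and -0.0049 for H2-Eb1.

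With 1 mouse left out, directions also turned. At 2 weeks H2-Aa ran from -0.037 to 0.16, H2-DMb2 from -0.096 to 0.088 and H2-Oa from -0.17 to 0.025, and at 4 weeks H2-DMb2 from -0.046 to 0.12. At 6 weeks of recovery H2-Aa ran from -0.074 to 0.098, H2-Eb1 from -0.015 to 0.16, H2-DMa from -0.00084 to 0.17, H2-DMb2 from -0.014 to 0.14, Cd74 from -0.058 to 0.13 and Ciita from -0.12 to 0.17. At 10 weeks H2-Oa ran from -0.032 to 0.19 and H2-DMb2 from -0.15 to 0.015. H2-DMb2 ran from -0.045 to 0.14 between 4 and 2 weeks of bleomycin and from -0.045 to 0.085 at 6 weeks of recovery against 4 weeks of bleomycin. At 10 weeks of recovery H2-Eb1 ran from -0.054 to 0.16, H2-Aa from -0.021 to 0.12 and H2-Ab1 from -0.021 to 0.18 against 4 weeks of bleomycin, and H2-Oa from -0.22 to 0.0054 against 6 weeks of recovery.

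For the ratios over the 42 mice, H2-Aa to H2-Ab1 (0.24) and Ciita to H2-Ab1 (0.79) at 2 weeks and H2-Ab1 to Ptprc after 6 weeks without bleomycin (0.37, adjusted p of 0.0496 by exact permutation) passed the test. Cd74 to H2-Ab1 at 2 weeks (-0.0018) and Ciita to H2-Ab1 at 10 weeks of recovery (-0.085) turned direction. In place of H2-Ab1 to Ptprc, the 10-week difference was -0.025 with Cd53, -0.0068 with Coro1a and -0.00063 with H2-Eb1. H2-DMb1 to Ptprc passed at 6 weeks of recovery (0.39), and Ciita to Ptprc did not at 2 weeks (-0.64) or 4 weeks (-0.38). With 1 mouse left out, H2-Ab1 to Ptprc ran from -1.44 to -1.25 at 2 weeks and from -1.10 to -0.96 at 4 weeks. H2-DMb1 to H2-DMb2 ran from 0.49 to 0.61 at 2 weeks, and Ciita to H2-Ab1 from 0.53 to 0.71 at 4 weeks. Directions turned for Cd74 to H2-Ab1 at 2 weeks (-0.033 to 0.054) and H2-Eb1 to H2-Ab1 at 6 weeks of recovery (-0.044 to 0.0033). Ciita to H2-Ab1 turned at 6 weeks (-0.15 to 0.13) and 10 weeks (-0.085 to 0.10) of recovery. H2-Aa to H2-Ab1 turned at 10 weeks (-0.050 to 0.078).

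Replicate numbers in the labels gave no clear sign of pairing the mice. Over 78 same-numbered pairs the median correlation of deviations was -0.0022 (range -0.69 to 0.38), with 18 pairs over 0.1. Of the 44 mice, 4 matched their own number best. A fit with the replicate number as a block changed no count of members called and turned H2-Aa at 6 weeks of recovery to -0.012. Over all genes it raised the calls against saline from 859 to 1129 at 6 weeks and from 519 to 643 at 10 weeks of recovery. Over all genes, counts with no fold limit were 6063, 6242, 1547 and 994 for the 4 comparisons with saline, against 2851, 3053, 859 and 519. The other references and numerators for the ratios, and the alternatives for the other gene lists, were chosen after the data were seen. With 12 reads at the lowest, H2-Oa was the member most limited by depth.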
